A study of Homo sapiens with 12 samples.

Results

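The genes carried by the mitochondrial genome were followed in 12 RNA-sequencing libraries of PC9, an established cell line from a human lung adenocarcinoma with an activated EGFR. Members were taken as all rows of the count table whose gene symbol starts with MT-, which gave 37 of 62754 rows: 13 protein genes, 2 rRNA genes and 22 tRNA genes. The low-count filter kept 15 of them, the 13 protein genes and both rRNA genes, among 17115 genes tested. All cells came from 1 subclonal PC9 line, and each group had 3 cultures seeded from a shared flask and kept separate afterwards. Untreated WT cells carry functional TDP1 and received no drug. DTC are the same TDP1 WT cells after 7 days in 1 µM erlotinib, an EGFR inhibitor, and the labels call them drug-tolerant cells. DTEC are TDP1 WT cells after 28 days in 1 µM erlotinib, the drug-tolerant expanded cells. KO stands for the line TDP1 KO2, grown without drug. Since it is 1 line, a property of that line and the loss of TDP1 cannot be told apart.

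Mitochondrial DNA encodes subunits of the respiratory chain and of ATP synthase together with the rRNAs and tRNAs that translate them. The RNA polymerase POLRMT, with the DNA-packaging factor TFAM, copies each strand into long precursors. The tRNAs lie between the other genes and are cut out by RNase P and ELAC2, which frees the mRNAs and rRNAs, and most mRNAs then receive a poly(A) tail and are stabilised by LRPPRC and SLIRP. Because all genes of a strand share precursors, differences between mature RNAs can arise after transcription. TOP1MT relaxes mitochondrial DNA, and TDP1, a DNA repair enzyme that removes trapped topoisomerase 1 from DNA ends, is known to work in mitochondria as well as in the nucleus.

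Library totals ran from 25572691 to 38373679 estimated counts. Genes with an estimated count of at least 1 numbered 23342 to 24224 in DTC and 20711 to 22303 in the other 9 libraries, and the 10 nuclear genes with most counts took 4.76% to 5.47% of each library. The TMM factor, which adjusts a library's total for its composition, was lowest for untreated WT (0.892 to 0.908), followed by KO (0.943 to 0.951), DTEC (1.01 to 1.02) and DTC (1.15 to 1.16). The summed CPM (counts scaled to a common, TMM-adjusted library total) of the 5 epithelial markers EPCAM, KRT8, KRT18, KRT7 and CDH1 was 5464 to 6203 in DTC and 8074 to 10834 in the other groups. Of the lung markers, NKX2-1 reached at most 0.442 CPM, NAPSA 1.96 CPM and SFTPB 17.1 CPM, and NKX2-1 was at 0 in at least 1 library. The leukocyte markers PTPRC and CD3E stayed at or under 0.147 CPM. The endothelial markers PECAM1 and CDH5 summed to 121 to 141 CPM in DTEC and 40.8 to 77.1 CPM in the other groups. The 3 lung markers summed to 12.3 to 17.5 CPM in DTEC and 1.21 to 7.54 CPM elsewhere, and the fibroblast markers COL1A1 and PDGFRB to 7.99 to 57.0 CPM, with the fibroblast sum highest in DTC (54.3 to 57.0 CPM). The part of these markers in the results below was not tested.

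TDP1 itself was measured at 28.1, 25.1 and 25.8 CPM in untreated WT and at 10.1, 11.3 and 10.98 CPM in KO. The groups did not overlap, and the transcript fell by 1.29 ± 0.11 (SE) on the log2 scale in KO (edgeR quasi-likelihood test with Benjamini-Hochberg adjustment over all 17115 genes, adjusted p = 1.3e-05).

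Several features of the mitochondrial sequences bear on what gene-level counts can separate. The coordinates and sequences are those of GENCODE 29 on GRCh38. MT-ATP8 (chrM:8366-8572, plus strand) and MT-ATP6 (chrM:8527-9207, plus strand) are read from 1 mRNA and share 46 bases, printed in capitals here, and MT-ND4L (chrM:10470-10766) and MT-ND4 (chrM:10760-12137) share 7 bases in the same way. The MT-ATP8 gene is shown whole, and the other 3 by the end or start that holds the shared bases:
MT-ATP8: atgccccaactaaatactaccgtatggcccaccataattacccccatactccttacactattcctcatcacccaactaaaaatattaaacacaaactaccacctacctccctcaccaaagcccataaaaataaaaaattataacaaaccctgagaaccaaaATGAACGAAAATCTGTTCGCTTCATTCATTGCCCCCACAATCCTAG
MT-ATP6 start: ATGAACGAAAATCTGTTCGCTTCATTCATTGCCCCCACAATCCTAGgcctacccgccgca
MT-ND4L end: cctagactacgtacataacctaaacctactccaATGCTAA
MT-ND4 start: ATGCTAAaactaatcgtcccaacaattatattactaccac

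A read that lies wholly in a shared stretch fits both genes. The deposited values of MT-ATP8 and MT-ND4L were nevertheless whole numbers in all 12 libraries. Of the 13 protein genes as annotated, 6 end before their stop codon is complete, and 7 hold a whole one. Background knowledge has the missing bases supplied by the poly(A) tail. MT-ATP6 and MT-CO3 also share 1 base, chrM:9207, which is the last base of the MT-ATP6 stop codon TAA. The complete stop of MT-ATP6 therefore includes a base shared with the next gene. The last 30 bases of 5 genes that the results turn on are shown with the final codon, or what the gene holds of it, in capitals (chrM:10375-10404, chrM:4233-4262, chrM:7416-7445 and chrM:14119-14148 on the plus strand, and chrM:14149-14178 on the minus strand for MT-ND6):
MT-ND3 3′ end: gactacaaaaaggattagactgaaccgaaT
MT-ND1 3′ end: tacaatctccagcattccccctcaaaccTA
MT-CO1 3′ end: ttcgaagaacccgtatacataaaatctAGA
MT-ND5 3′ end: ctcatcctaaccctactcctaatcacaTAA
MT-ND6 3′ end: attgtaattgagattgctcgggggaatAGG

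MT-ND6 is the 1 protein gene here on the other strand, and its mRNA is known to lack a stable poly(A) tail. The libraries were made from polyadenylated RNA, and rRNAs carry at most short tails, so counts of MT-ND6 and of the rRNAs are not on the same footing as those of the other mRNAs. The strand setting of the counting is not given in the sources used here, so reads of MT-ND6 and of opposite-strand RNA at that place cannot be told apart. The longest run of A within MT-RNR1 (12S rRNA, chrM:648-1601, 954 bases) is 6 bases and within MT-RNR2 (16S rRNA, chrM:1671-3229, 1559 bases) 7 bases, while MT-ND5 holds a run of 8. The stretches around the longest runs in the rRNAs, at chrM:978-1013 and chrM:2442-2478, are shown with the run in capitals, because the rRNAs are described below beside the polyadenylated mRNAs:
MT-RNR1: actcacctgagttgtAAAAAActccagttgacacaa
MT-RNR2: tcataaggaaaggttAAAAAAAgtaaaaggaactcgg

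In untreated WT the 13 protein genes held 2.24%, 2.25% and 2.49% of all counts in the 3 libraries, and the 2 rRNA genes held 0.294%, 0.257% and 0.279%. In CPM per kilobase of annotated gene, MT-CO2 (4014 ± 213, SD, n = 3), MT-CO1 (3994 ± 216) and MT-CO3 (3947 ± 209), which encode the core of cytochrome c oxidase, and MT-ND4 (3479 ± 308) of complex I stood highest, and neighbours among these 4 overlapped between libraries. MT-ND1 (2342 ± 141), MT-ATP6 (2295 ± 139), MT-ND2 (1837 ± 123.2), MT-ND4L (1683 ± 300.4) and MT-RNR2 (1601 ± 120.3) followed. Below them stood MT-CYB (1160.2 ± 99.5), MT-ND3 (1058 ± 134), MT-RNR1 (601 ± 56.0), MT-ATP8 (567 ± 42.8) and MT-ND5 (536 ± 92.5). The steps from MT-ND4 to MT-ND1, MT-ATP6 to MT-ND2, MT-RNR2 to MT-CYB and MT-ND3 to MT-RNR1 were free of overlap between libraries, while the other neighbours down to MT-ND5 overlapped. MT-ND6 was far below, at 2.70 ± 1.80 CPM per kilobase. Short genes such as MT-ATP8 can be understated on this scale, since sequenced fragments have to fit inside them.

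The plot of levels by gene and library shows this order and its shifts between groups.

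**Figure D1:**
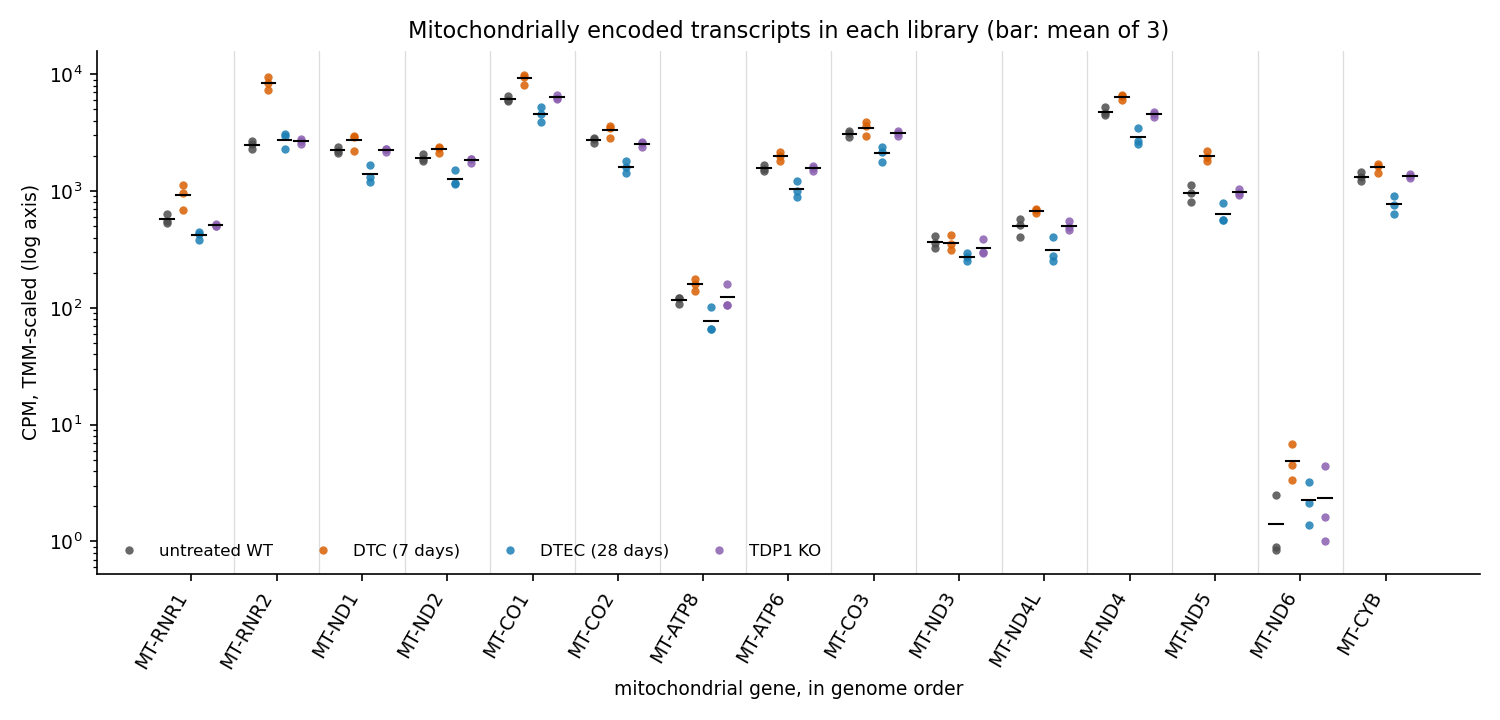
CPM of the 15 tested mitochondrial genes (log axis, genome order), 1 point per library and a bar at the mean of 3. The 3 DTC libraries of MT-RNR2 sit between 7402 and 9465 CPM, and those of all other groups between 2281 and 3052 CPM.

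The 22 tRNA genes were in effect not measured. In all 12 libraries together they held 8 counts, 7 of them in MT-TF (tRNA-Phe) and 1 in MT-TA (tRNA-Ala), and the other 20 rows were at 0. No library had more than 3 counts for any of them. A count of 0 allows up to 3 counts, or 0.0824 to 0.115 CPM depending on the library, a limit on counting error alone, since the kit adds no molecular identifiers. No fold change is given for tRNAs.

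After 7 days of erlotinib, mitochondrial transcripts made up more of the library. The 13 protein genes held 3.502%, 4.19% and 4.13% of the counts in DTC, a mean of 3.94% ± 0.38 (SD, n = 3) against 2.33% ± 0.14 in untreated WT. The rRNA genes held 0.930%, 1.22% and 1.09%, a mean of 1.08% ± 0.14 against 0.277% ± 0.019. For both shares all 3 DTC libraries lay above all 3 untreated WT libraries (two-sided exact permutation test, p = 0.1, the smallest that 3 against 3 can give). In bulk RNA, fewer cells of a kind and less RNA per cell cannot be told apart, and a share of counts gives no absolute amount.

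The 16S rRNA MT-RNR2, of the large mitochondrial ribosome subunit, rose most among the well-counted members. Its level was 2667, 2295 and 2524 CPM in untreated WT and 7402, 9465 and 8397 CPM in DTC, with no overlap. The log2 fold change was 1.75 ± 0.13 (SE), a 3.37-fold rise (edgeR, adjusted p = 3.44e-08), and it stayed between 1.72 and 2.11 and called in all 16 alternatives. The 12S rRNA MT-RNR1, of the small subunit, rose less, from 633, 532 and 554 CPM to 683, 1132 and 960.3 CPM (log2 fold change 0.69 ± 0.15, edgeR adjusted p = 0.000904). Its DTC replicate 1 lay close to the untreated WT range, and its groups did not overlap either.

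Of the 13 protein genes, 6 rose and 7 did not pass the test in DTC against untreated WT. The background was high, with 67.3% of all genes called (34.0% higher and 33.3% lower). The median log2 fold change of the 13 was 0.34, beside 0.06 over all genes. The members that rose were MT-ND4, MT-ND4L, MT-ND5 and MT-ND6 of complex I, MT-CO1 of complex IV and MT-ATP6 of ATP synthase.

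MT-ND5, which encodes a large proton-pumping subunit at the tip of complex I's membrane arm, rose most clearly, from 803, 971 and 1138 CPM to 1824, 1967 and 2201 CPM (log2 fold change 1.04 ± 0.15, 2.06-fold, edgeR adjusted p = 2.75e-05). Every DTC library exceeded every untreated WT library. MT-CO1, the catalytic subunit of cytochrome c oxidase, stood at 6078, 5874 and 6526 CPM in untreated WT and 8118, 9953 and 9571 CPM in DTC, again without overlap (0.58 ± 0.12, edgeR adjusted p = 0.000597). MT-ND4, a pump subunit next to MT-ND5, went from 4474, 4634 and 5275 CPM to 6031, 6685 and 6582 CPM (0.42 ± 0.12, edgeR adjusted p = 0.00694).

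MT-ND4L, a small membrane subunit of complex I, rose by a log2 fold change of 0.44 ± 0.17 (edgeR adjusted p = 0.0281) and MT-ATP6, the proton-channel subunit of ATP synthase, by 0.34 ± 0.12 (edgeR adjusted p = 0.0192). MT-ND6 rose from 2.51, 0.843 and 0.894 CPM to 3.38, 6.80 and 4.54 CPM (1.79 ± 0.56, edgeR adjusted p = 0.0132) on 25 to 231 counts per library, and the groups did not overlap. These last 3 calls did not hold in every fit that left out 1 library. MT-ND4L was lost without untreated WT replicate 1 (0.34, edgeR adjusted p = 0.1004) or DTC replicate 1 (0.47, edgeR adjusted p = 0.05003), MT-ATP6 without untreated WT replicate 2 (0.33, edgeR adjusted p = 0.0596), and MT-ND6 without DTC replicate 2 (1.54, edgeR adjusted p = 0.0514).

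The 7 genes not called had log2 fold changes of −0.01 ± 0.14 for MT-ND3, 0.16 ± 0.13 for MT-CO3, 0.25 ± 0.12 for MT-ND2, 0.27 ± 0.12 for MT-CO2, 0.27 ± 0.13 for MT-CYB, 0.28 ± 0.14 for MT-ND1 and 0.44 ± 0.19 for MT-ATP8. MT-CYB encodes the cytochrome b of complex III. In MT-ND3, a small complex I subunit, the groups overlapped widely (416, 326 and 356 CPM in untreated WT, 311, 422 and 355 CPM in DTC). In MT-CO3, MT-CO2, MT-ND1 and MT-CYB the overlap came through DTC replicate 1, which was the lowest DTC library in each. Without that library 11 of the 13 were called higher, and the share of all genes called in that fit is not given here.

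The count of 6 depended on the scaling. With library totals alone the median of all genes moved from 0.06 to 0.41 and all 13 genes were called higher. With upper-quartile scaling it moved to 0.34, and 12 were called. Calls over all 17115 genes moved with it, from 11520 of which 50.5% were higher to 11710 with 68.4% and 11646 with 64.97%. Relative to the median of all genes, the median of the 13 lay 0.29 higher in each of these 3 scalings, with 12 genes above it and MT-ND3 below. A change of scaling shifts all genes nearly alike, so this distance could hardly differ and is no check of the result.

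**Figure D2:**
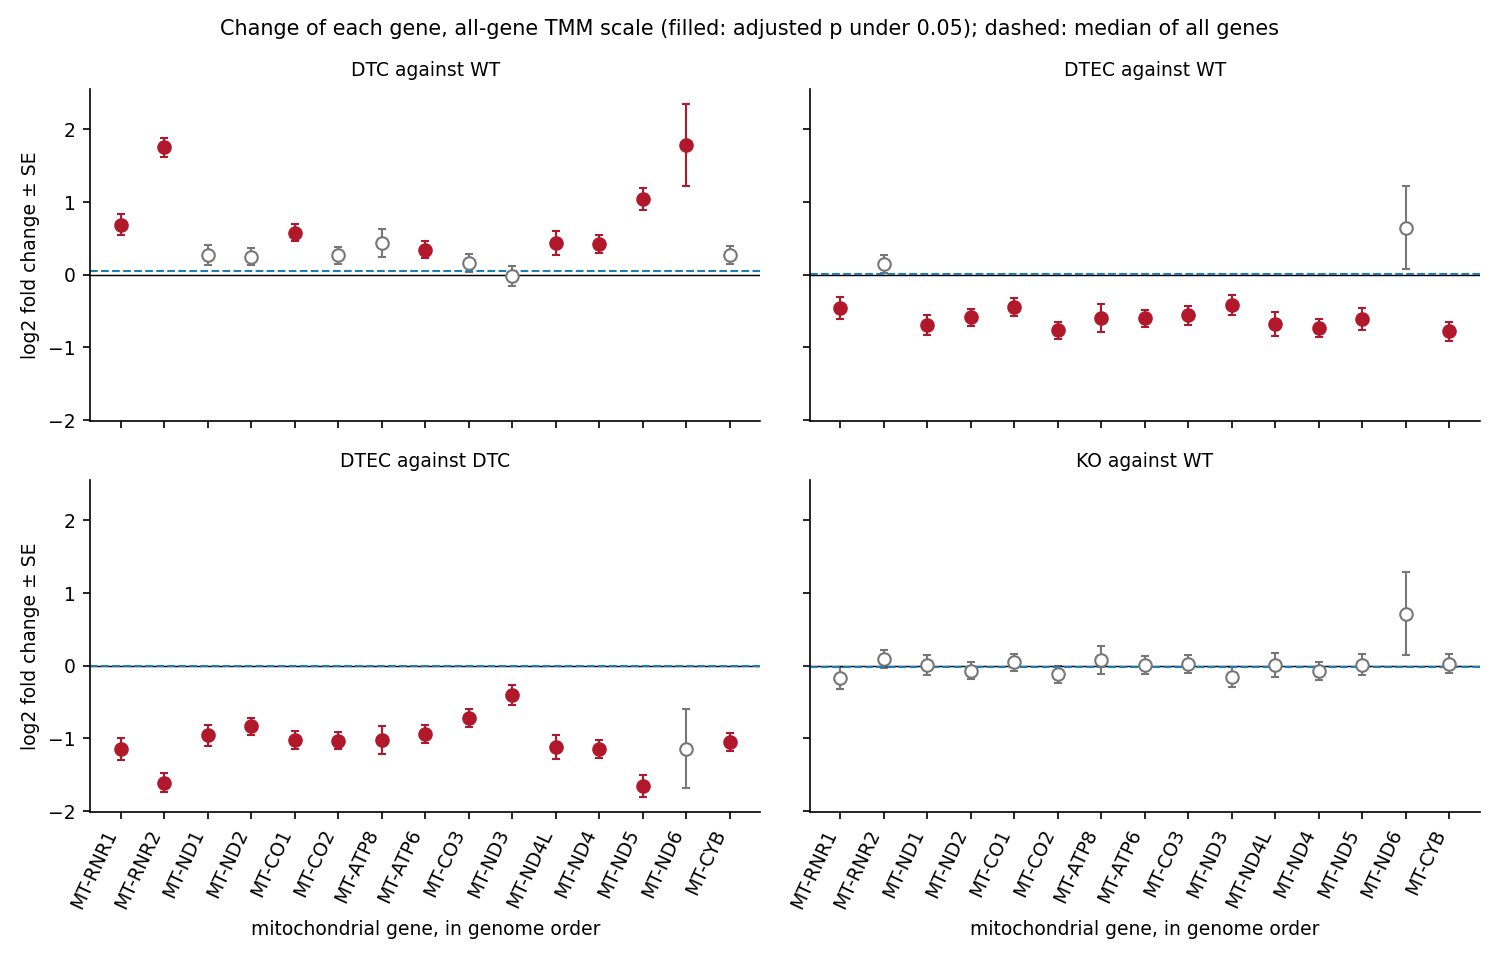
Log2 fold change ± SE of the 15 tested mitochondrial genes in genome order for the 4 comparisons, filled where the adjusted p is under 0.05, with the median of all genes dashed. In DTC against WT the rRNA MT-RNR2 (1.75) and MT-ND5 (1.04) stand above most others, in DTEC against WT 12 protein genes lie between −0.78 and −0.42, and in KO against WT no gene is filled.

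After 28 days of erlotinib the protein-coding transcripts were below their untreated level. The 13 genes held 1.48%, 2.02% and 1.65% of the counts in DTEC (mean 1.72% ± 0.28, SD, n = 3), under all 3 untreated WT libraries (two-sided exact permutation test, p = 0.1, the smallest possible). Of the 13, 12 fell, with log2 fold changes from −0.78 to −0.42 and a median over the 13 of −0.60, beside 0.02 over all genes. Of all genes tested, 26.3% were called lower and 52.3% in either direction. Of the 8955 calls 49.7% were higher. With library totals alone 63.7% of 9017 calls were higher and 9 protein genes were called lower. With upper-quartile scaling 59.1% of 8900 calls were higher and 10 protein genes were called lower. This comparison shares its untreated WT libraries with the one at 7 days.

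MT-CYB fell most, from 1217, 1312 and 1443 CPM to 643, 913 and 760.5 CPM (−0.78 ± 0.13, SE, edgeR adjusted p = 0.000142). MT-CO2, the subunit that receives electrons from cytochrome c, came next, from 2851, 2579 and 2806 CPM to 1437, 1816 and 1597 CPM (−0.76 ± 0.12, edgeR adjusted p = 9.64e-05). Neither gene's groups overlapped. MT-CO1 fell less, to 3878, 5196 and 4528 CPM (−0.44 ± 0.12, edgeR adjusted p = 0.00631), a call lost with library totals alone (−0.27, edgeR adjusted p = 0.0726), and MT-ND3 least, to 273, 296 and 254 CPM (−0.42 ± 0.14, edgeR adjusted p = 0.0216).

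MT-ND5 stood at 563, 784 and 561 CPM, below untreated WT (−0.61 ± 0.15, edgeR adjusted p = 0.00347), and MT-ND4 at 2543, 3473 and 2675 CPM (−0.73 ± 0.12, edgeR adjusted p = 0.000204). Among the 12, the libraries of MT-ND4L met those of untreated WT (405, 512 and 582 CPM against 279, 406 and 253 CPM) although it was called (−0.68 ± 0.17, edgeR adjusted p = 0.00347). The other 11 were free of overlap, and no count of this over all genes is given here. MT-ND6 was not called (2.13, 3.25 and 1.37 CPM, log2 fold change 0.65 ± 0.57, edgeR adjusted p = 0.364). MT-ND3 was lost without untreated WT replicate 1 (−0.30, edgeR adjusted p = 0.117), DTEC replicate 1 (−0.39, edgeR adjusted p = 0.0575) or DTEC replicate 3 (−0.37, edgeR adjusted p = 0.0648). MT-ATP8, called with −0.59 ± 0.19 (edgeR adjusted p = 0.0180), did not hold when any of 4 libraries was left out, namely replicates 2 and 3 of untreated WT (edgeR adjusted p = 0.0511 and 0.0522) and replicates 1 and 3 of DTEC (edgeR adjusted p = 0.0786 and 0.0704).

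The rRNAs parted at 28 days. MT-RNR1 was lower than in untreated WT at 446, 427 and 379.7 CPM (−0.46 ± 0.15, SE, edgeR adjusted p = 0.0190), a call that did not hold without untreated WT replicate 1 (−0.36, edgeR adjusted p = 0.0832) or DTEC replicate 3 (−0.40, edgeR adjusted p = 0.0595). MT-RNR2 was at 2959.9, 3052 and 2281 CPM and overlapped untreated WT (0.15 ± 0.13, edgeR adjusted p = 0.347). With library totals alone MT-RNR1 was not called (−0.29, edgeR adjusted p = 0.119) and MT-RNR2 was (0.32, edgeR adjusted p = 0.0499). The rRNA share of all counts, 0.323% ± 0.047 (SD, n = 3), overlapped that of untreated WT (two-sided exact permutation p = 0.3).

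The direct comparison of DTEC with DTC tests how far the transcripts differed between 7 and 28 days. Of the 13 protein genes 12 were lower in DTEC, from −0.40 to −1.65 on the log2 scale with a median over the 13 of −1.03, beside −0.01 over all genes. Of all genes tested 26.6% were called lower and 55.4% in either direction, and 51.9% of the calls were higher, or 37.4% with library totals alone and 38.7% with upper-quartile scaling. MT-ND5 was lowest at −1.65 ± 0.15 (SE, 3.14-fold lower, edgeR adjusted p = 7.62e-07), ahead of MT-ND4 at −1.15 ± 0.12 (edgeR adjusted p = 3.18e-06). MT-ND3 differed least at −0.40 ± 0.14 (edgeR adjusted p = 0.0240), and this call was lost without DTC replicate 2 (−0.32, edgeR adjusted p = 0.0684) or DTEC replicate 3 (−0.39, edgeR adjusted p = 0.0529). MT-ND6 was not called (−1.14 ± 0.54, edgeR adjusted p = 0.0941), and in all 13 genes the DTEC libraries lay below the DTC libraries. How many of all genes did so is not given here. MT-RNR2 was lower by −1.61 ± 0.13 (edgeR adjusted p = 2.11e-07) and MT-RNR1 by −1.15 ± 0.15 (edgeR adjusted p = 2.03e-05).

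In KO against untreated WT none of the 15 mitochondrial genes was called by edgeR (adjusted p from 0.589 to 0.992), 0 had an unadjusted p under 0.05, and DESeq2 also called 0. Among all genes 4.31% were called, 2.76% higher and 1.55% lower. Of these calls 64.1% were higher, or 78.8% with library totals alone. The protein genes ran from −0.16 ± 0.14 for MT-ND3 to 0.72 ± 0.57 for MT-ND6, with a median of 0.01 beside −0.01 over all genes, and 11 of the 13 had an SE between 0.12 and 0.17. MT-CO1 stood at 6268, 6177 and 6624 CPM in KO and MT-ND5 at 932, 965 and 1047 CPM, both overlapping untreated WT. The value of MT-ND6 came from KO replicate 1 (4.46 CPM, beside 1.00 and 1.60 CPM) and was −0.09 without it. MT-RNR2 gave 0.09 ± 0.13 and MT-RNR1 −0.17 ± 0.15. Though MT-RNR1 was not called, every KO library of it (527, 505 and 498 CPM) lay below every untreated WT library (633, 532 and 554 CPM). How many of all genes separated in this way is not given here.

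Dividing by the mitochondrial signal itself removes the question of how the whole library was scaled. A further edgeR fit therefore scaled each library to its summed 13 protein genes. In DTC against untreated WT, MT-RNR2 was still higher on that scale, at a log2 fold change of 1.34 ± 0.18 (SE, edgeR adjusted p = 3.5e-08), and MT-RNR1 was not called (0.27 ± 0.18, edgeR adjusted p = 0.204). Without DTC replicate 1, however, MT-RNR1 was called higher on that scale (0.38, edgeR adjusted p = 0.0338). On this scale 65.9% of all genes were called in DTC (22.1% higher and 43.7% lower), since the scaling shifts all nuclear genes together. As a percentage of the 13 protein genes, MT-RNR2 was 10.6%, 9.27% and 9.18% in the untreated WT libraries. DTC gave 24.3%, 25.9% and 23.6%, DTEC gave 20.1%, 15.5% and 14.0%, and KO gave 10.7%, 10.3% and 10.3%. DTC and DTEC lay above untreated WT without overlap, and DTEC below DTC. In DTEC the edgeR fit gave 0.77 ± 0.18 against untreated WT (adjusted p = 0.000365) and −0.58 ± 0.18 against DTC (adjusted p = 0.00394), and all 10 alternatives of each of these 3 MT-RNR2 comparisons were called.

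The ratio of MT-RNR2 to MT-RNR1 counts, both rRNAs from the same strand and precursor, was 4.21, 4.32 and 4.55 in untreated WT. It was 10.8, 8.36 and 8.74 in DTC and 6.63, 7.14 and 6.01 in DTEC, with DTC highest and no overlap among the 3 groups. KO libraries, at 5.25, 4.96 and 5.43, also lay above untreated WT, a difference of 0.853 in the ratio. Each of these comparisons reached p = 0.1 in the two-sided exact permutation test, the smallest that 3 against 3 can give.

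**Figure D3:**
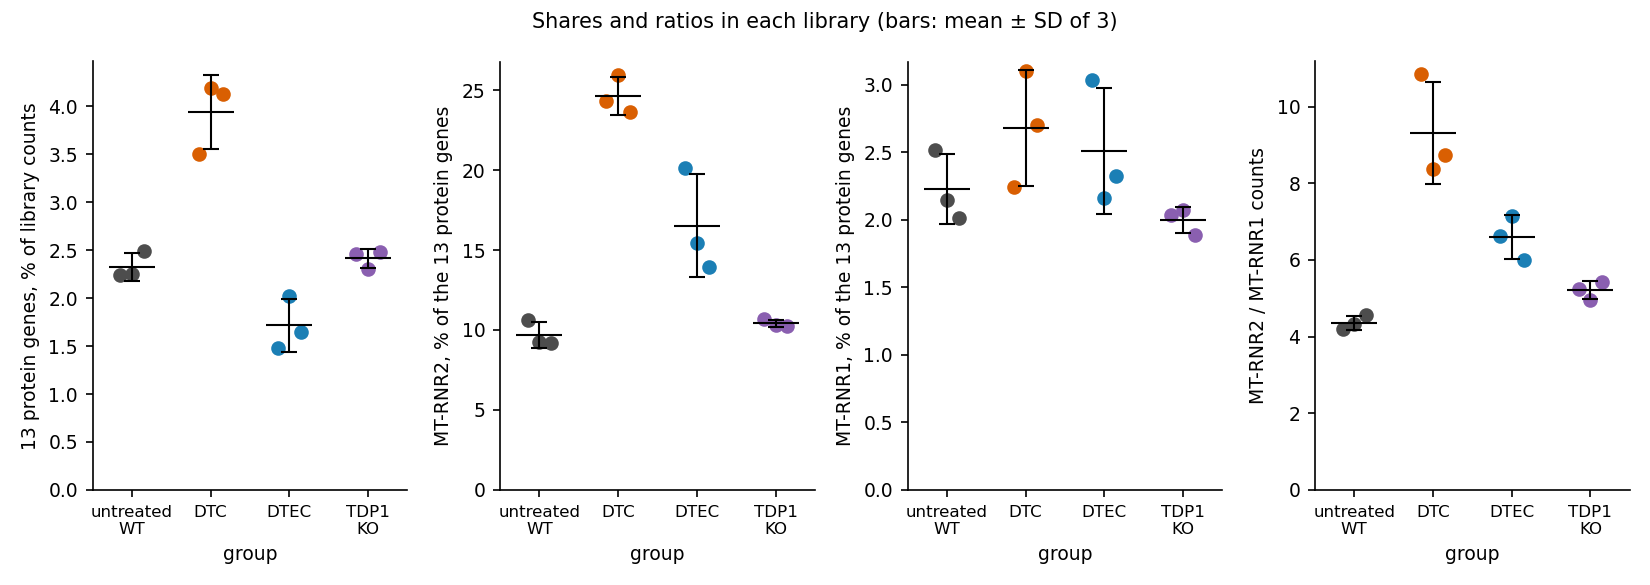
Share of library counts in the 13 protein genes, MT-RNR2 and MT-RNR1 as a percentage of those genes, and the ratio of MT-RNR2 to MT-RNR1, 1 point per library with mean ± SD of 3. The MT-RNR2 percentage is 24.6 in DTC and 9.69 in untreated WT on average, whereas the MT-RNR1 percentages of DTC, DTEC and KO each overlap those of untreated WT.

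Among the protein genes, edgeR called 2 in DTC on the scale of the 13. MT-ND5 was higher (0.64 ± 0.18, SE, edgeR adjusted p = 0.00166) and MT-ND3 lower (−0.43 ± 0.18, edgeR adjusted p = 0.0374). An absent call on this scale does not show an unchanged share. MT-CO1 was not called (0.17 ± 0.17, edgeR adjusted p = 0.369), though its shares of the 13 in DTC and untreated WT did not overlap. MT-ND5 made up 3.20%, 3.92% and 4.14% of the 13 in untreated WT and 5.99%, 5.39% and 6.18% in DTC, and MT-ND3 1.66%, 1.32% and 1.296% against 1.02%, 1.16% and 0.996%. Neither pair of groups overlapped. The call of MT-ND3 was lost without untreated WT replicate 1 (−0.30, edgeR adjusted p = 0.209), untreated WT replicate 2 (−0.48, edgeR adjusted p = 0.0505) or DTC replicate 3 (−0.39, edgeR adjusted p = 0.124). It was also lost without the low-count filter (edgeR adjusted p = 0.0699) and in a fit of the compared libraries alone (edgeR adjusted p = 0.0508), whereas MT-ND5 was called in all 10 alternatives.

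By 28 days MT-ND5 was back at 3.83%, 3.97% and 3.43% of the 13 (−0.00 ± 0.18 against untreated WT, edgeR adjusted p = 0.988). MT-ND3 made up 1.86%, 1.499% and 1.55% (0.20 ± 0.18, edgeR adjusted p = 0.344). Against DTC, MT-ND5 was lower (−0.64 ± 0.18, edgeR adjusted p = 0.00127) and MT-ND3 higher (0.63 ± 0.18, edgeR adjusted p = 0.00222), each in all 10 alternatives. Of all genes, 58.5% were called in DTEC against untreated WT on this scale (53.8% higher and 4.73% lower) and 74.3% in DTEC against DTC (67.9% higher and 6.43% lower). In KO no mitochondrial gene was called on this scale (edgeR, lowest adjusted p = 0.828, beside 2.44% of all genes, 1.82% higher and 0.613% lower). As in DTC, absent calls do not show unchanged shares.

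MT-ND5 and MT-ND4 are neighbours on the same strand, separated by 3 tRNA genes. The ratio of their counts was 0.180, 0.210 and 0.216 in untreated WT and 0.302, 0.294 and 0.334 in DTC, without overlap, and 0.221, 0.226 and 0.210 in DTEC. MT-CO1 made up 23.9% ± 0.26 (SD, n = 3) of the 13 in untreated WT, 26.9% ± 0.31 in DTC and 26.8% ± 0.78 in DTEC, both drug groups above untreated WT in every library. MT-CO3 made up 12.02% ± 0.80, 10.1% ± 0.49 and 12.4% ± 0.76 in the same order, lower in DTC alone, and MT-CO2 10.7% ± 0.60, 9.64% ± 0.34 and 9.58% ± 0.33, lower in both drug groups.

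Counted over the 13 shares, 10 genes had no overlap between DTC and untreated WT (3 higher, MT-CO1, MT-ND5 and MT-ND6, and 7 lower), 4 between DTEC and untreated WT, 6 between DTEC and DTC, and 2 between KO and untreated WT. Those 2 were MT-ND2 (7.16% ± 0.07 in KO, 7.42% ± 0.08 in untreated WT) and MT-CO2 (9.89% ± 0.19 in KO). Shares within a fixed total are not independent of each other, and over the 52 tests (exact permutation, two-sided) the lowest adjusted p was 0.236. In that test any full separation of 3 against 3 gives an unadjusted p = 0.1. No count of such separations over all genes is given here, so these counts describe the 13 alone. Summed by complex, the 7 complex I genes made up 41.8% ± 1.46 (SD, n = 3) of the untreated WT total, and the values for DTC, DTEC and KO were 42.4% ± 1.02, 40.1% ± 1.76 and 41.0% ± 0.15. The 3 complex IV genes made up 46.6% ± 1.65, 46.7% ± 1.13, 48.8% ± 1.74 and 47.1% ± 0.25 in the same order.

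**Figure D4:**
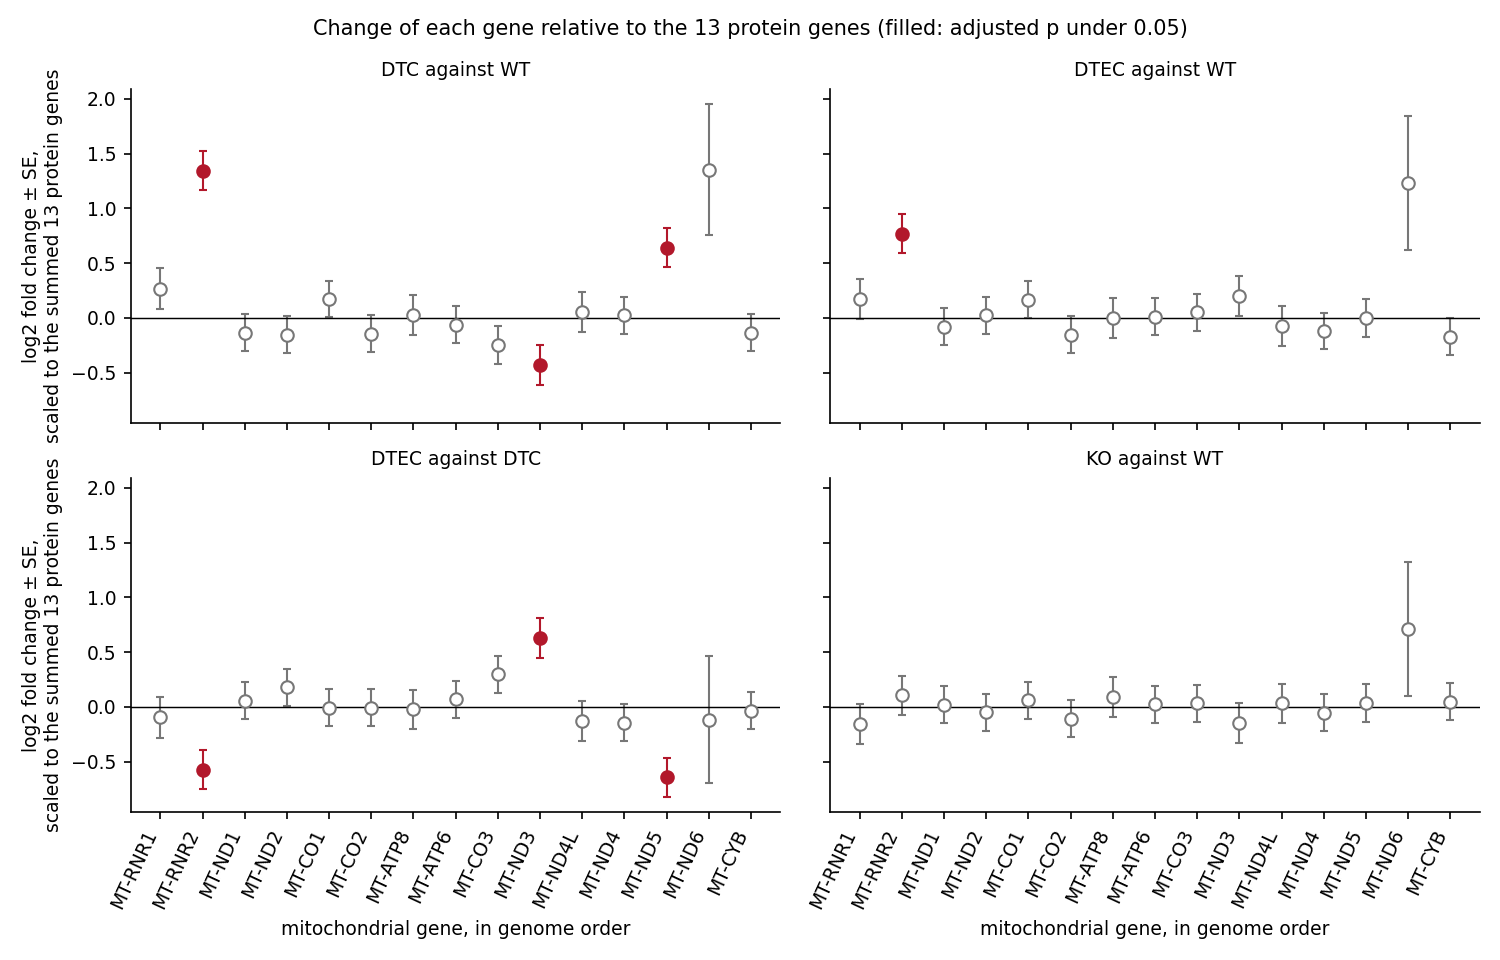
Log2 fold change ± SE of the 15 genes after scaling each library to its summed 13 protein genes, filled where the adjusted p is under 0.05. In DTC against WT only MT-RNR2 (1.34), MT-ND5 (0.64) and MT-ND3 (−0.43) are filled, and in DTEC against WT only MT-RNR2 (0.77).

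Grouped by the last codon, the 7 genes with a complete stop had a median log2 fold change of 0.44 in DTC against untreated WT and the 6 with an incomplete one a median of 0.26. In DTEC the medians were −0.60 and −0.63. MT-ND3 (T) and MT-ND1 (TA) belong to the incomplete group and MT-CO1 (AGA), MT-ND5 (TAA) and MT-ND6 (AGG) to the complete one. MT-ATP6 (TAA) was counted as complete by its annotation, although the last base of its stop is shared with MT-CO3. These medians are a description of genes that share precursors and libraries.

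In order per kilobase, MT-RNR2 had rank 9 of 15 in untreated WT and rank 2 in DTC (5402 ± 662 CPM per kilobase, SD, n = 3), behind MT-CO1 (5975 ± 628), with overlap between the libraries of the pair. Its rank was 5 in DTEC (1773 ± 270.0), between MT-ND4 and MT-ATP6 and overlapping both, and 8 in KO (1705 ± 86.5), overlapping MT-ND2 and MT-ND4L. MT-ND5 had rank 14 in untreated WT and DTEC, 13 in KO and 11 in DTC (1102 ± 105), overlapping MT-ND3 there. MT-ND6 was last in each group, at 9.35 ± 3.31 CPM per kilobase in DTC.

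The nuclear genome holds copies of mitochondrial genes that can take or lend reads. By symbol 404 rows were such copies, and 29 had any count. The largest was MTATP6P1 (chr1:633696-634376), which holds 681 bases that are 98.5% identical to MT-ATP6 and received 11.1% to 13.1% as many counts as MT-ATP6. MTND2P28 (chr1:629640-630683, 98.4% identical) received 1.88% to 2.18% of the MT-ND2 count and MTCO1P12 (chr1:631074-632616, 98.7% identical) 0.327% to 0.430% of the MT-CO1 count. Group means of the MTATP6P1 percentage lay between 12.1 (KO) and 12.7 (DTEC). For the other protein genes the copy with most counts took at most 0.0507% of its parent, apart from MTND6P3 with up to 8% of the small MT-ND6 count. The deposited values of MT-ND1, MT-ND2, MT-CO1 and MT-ATP6 carried decimals in all 12 libraries. Adding the copies to their parents left 6, 12, 12 and 0 protein genes called in the 4 comparisons, the same counts as without.

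The nuclear genes that copy, package and process mitochondrial DNA and RNA mostly fell in DTC. Their lists were compiled from general knowledge. TFAM fell from 241, 216 and 233 CPM to 80.7, 81.6 and 82.8 CPM (log2 fold change −1.49 ± 0.09, SE, edgeR adjusted p = 5.71e-09). POLRMT fell from 53.6, 83.7 and 79.3 CPM to 21.5, 34.7 and 36.1 CPM (−1.23 ± 0.21, edgeR adjusted p = 0.000193). In both genes the DTC libraries lay below all untreated WT libraries. Of the 8 mitochondrial transcription genes 4 fell, the other two being the transcription factor TFB2M (−0.52, edgeR adjusted p = 0.00704) and MTERF3 (−0.82, edgeR adjusted p = 6.8e-05), both named after their values were seen, and 1 rose, the termination-family factor MTERF2 (0.44 ± 0.18, edgeR adjusted p = 0.0375), with overlapping libraries and a call that was lost without untreated WT replicate 2 (0.39, edgeR adjusted p = 0.0989), untreated WT replicate 3 (0.38, edgeR adjusted p = 0.107) or DTC replicate 2 (0.31, edgeR adjusted p = 0.132). The median of the list was −0.34.

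Of 12 genes of mitochondrial DNA replication and topology 9 fell in DTC (median −0.78), led by the helicase TWNK (−1.81 ± 0.12, edgeR adjusted p = 1.45e-08). TOP1MT fell from 51.9, 58.7 and 51.1 CPM to 16.5, 15.3 and 16.4 CPM (−1.75 ± 0.11, edgeR adjusted p = 6.77e-09). TDP1 fell to 15.7, 12.7 and 13.5 CPM (−0.92 ± 0.11, edgeR adjusted p = 3.56e-06). Of 21 genes of mitochondrial RNA processing and stability 17 fell (median −0.82), among them the RNA-stability factors TBRG4 (−1.55 ± 0.09, edgeR adjusted p = 4.94e-09) and LRPPRC, which went from 1007, 873 and 906 CPM to 402, 266 and 307 CPM (−1.52 ± 0.15, edgeR adjusted p = 4.61e-07). All 7 tested regulators of mitochondrial biogenesis fell (median −1.36), most of all the coactivator PPARGC1B (−2.01 ± 0.15, edgeR adjusted p = 4.66e-08). The background of genes called lower in DTC was 33.3%, and the median of all genes 0.06.

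In DTEC against untreated WT, 5 of 8 transcription genes, 9 of 12 replication genes, 17 of 21 RNA processing genes and 5 of 7 biogenesis regulators were lower (medians −0.44, −0.55, −0.51 and −0.80), beside 26.3% of all genes. Besides POLRMT and TFAM, the transcription genes were TFB2M (−0.58), MTERF3 (−0.57) and MTERF1 (−0.33), and besides PPARGC1B and NRF1 (−0.80) the regulators were PPRC1 (−1.15), ESRRA (−1.18) and GABPB1 (−0.72), all named after their values were seen. POLRMT led the first list (28.1, 35.5 and 44.2 CPM, −1.01 ± 0.21, edgeR adjusted p = 0.00142), the nuclease EXOG the second (−1.15 ± 0.18, edgeR adjusted p = 8.85e-05), SLIRP the third (−1.13 ± 0.21, edgeR adjusted p = 0.000452) and PPARGC1B the fourth (−1.58 ± 0.15, edgeR adjusted p = 1.19e-06). TFAM was at 167, 168 and 144 CPM (−0.53 ± 0.09, edgeR adjusted p = 0.000222). LRPPRC, at 821, 699 and 615 CPM, was called (−0.38 ± 0.14, edgeR adjusted p = 0.0358), but the call was lost when any library other than DTEC replicate 1 was left out (edgeR adjusted p = 0.0585 to 0.151) and with library totals alone (−0.22, edgeR adjusted p = 0.217), upper-quartile scaling (−0.27, edgeR adjusted p = 0.109) or DESeq2 size factors (−0.37, edgeR adjusted p = 0.0505). TOP1MT (42.5, 48.7 and 55.6 CPM) and TDP1 (28.4, 25.4 and 26.1 CPM) overlapped untreated WT and were not called (−0.14 ± 0.11 and 0.02 ± 0.11, edgeR adjusted p = 0.286 and 0.905).

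In the direct comparison of the drug groups, several of these nuclear genes were higher at 28 days than at 7. TOP1MT was 1.61 ± 0.11 (SE, log2) higher in DTEC than in DTC (edgeR adjusted p = 3.99e-08), TFAM 0.97 ± 0.09 (edgeR adjusted p = 8.68e-07), LRPPRC 1.13 ± 0.15 (edgeR adjusted p = 1.61e-05), the transcription factor NRF1 1.18 ± 0.11 (edgeR adjusted p = 8.19e-07) and TDP1 0.93 ± 0.11 (edgeR adjusted p = 6.31e-06). POLRMT was not called (0.22 ± 0.21, edgeR adjusted p = 0.396). By list, 1 of 8 transcription genes, 7 of 12 replication genes, 9 of 21 processing genes and 6 of 7 regulators were higher in DTEC, against 28.8% of all genes. In the first 3 lists 2, 3 and 2 genes were lower, against 26.6% of all genes, so lower calls were no more frequent there than elsewhere. Those lower were MTERF1 (−0.36), the polymerase subunits POLG (−0.31) and POLG2 (−0.40) and FASTKD1 (−0.49), named after their values were seen, together with EXOG (−1.22 ± 0.18, edgeR adjusted p = 4.8e-05), the RNA-binding protein FASTK (−0.57 ± 0.15, edgeR adjusted p = 0.00591) and the elongation factor TEFM (−0.47 ± 0.18, edgeR adjusted p = 0.0422), whose call did not hold without any 1 of 5 libraries (DTC replicates 2 and 3 and the 3 of DTEC, edgeR adjusted p = 0.0525 to 0.199). In FASTK and TEFM the libraries of the drug groups overlapped.

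**Figure D5:**
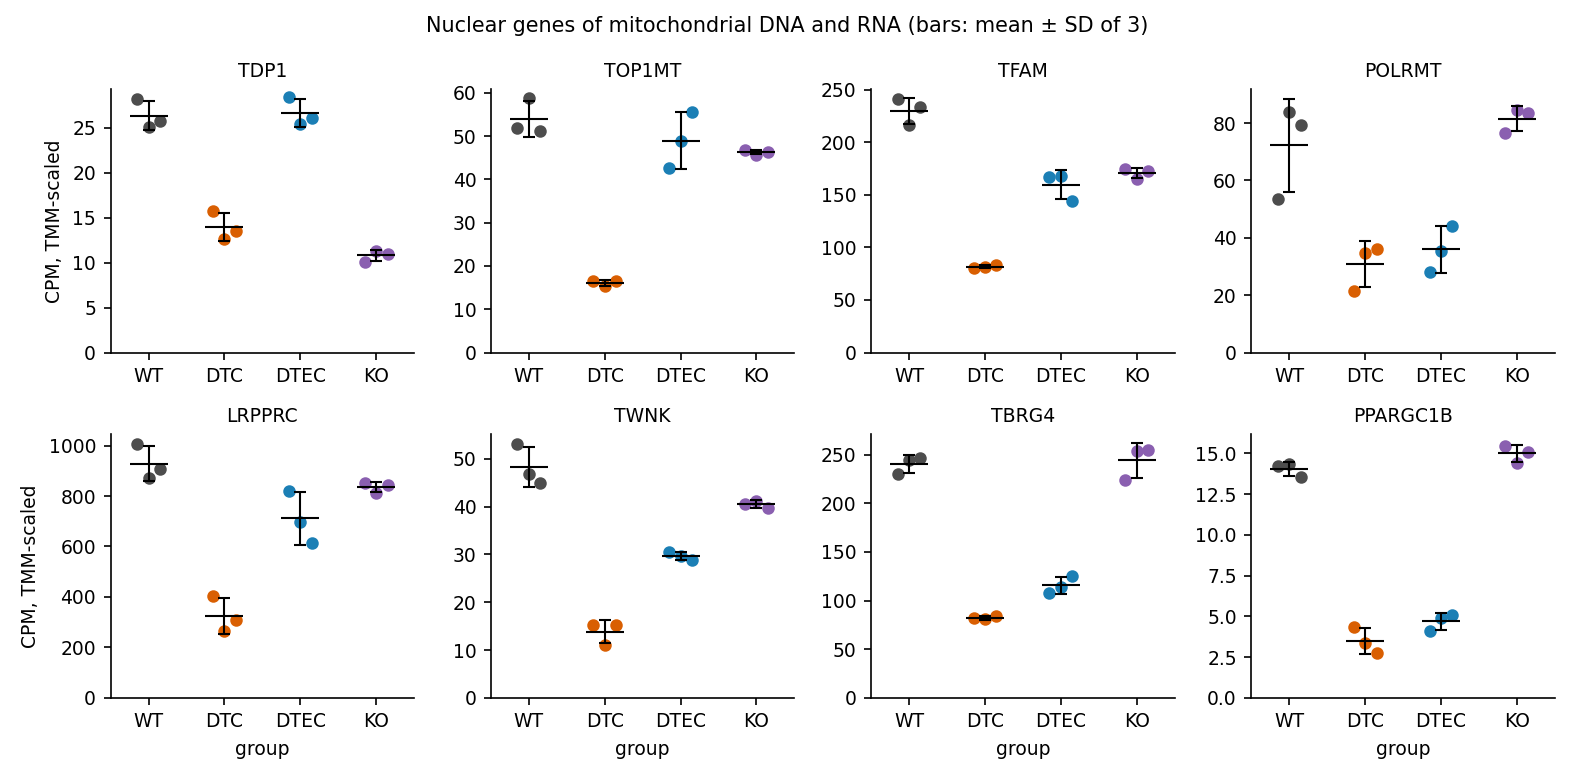
CPM of TDP1 and 7 nuclear genes of mitochondrial DNA and RNA in each library, with mean ± SD of 3, each panel on its own axis from 0. TFAM averages 230.0 CPM in untreated WT, 81.7 CPM in DTC and 159.7 CPM in DTEC, and TOP1MT 53.9, 16.1 and 48.9 CPM.

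In KO, 1 of the 8 transcription genes was lower, TFAM (174, 165 and 173 CPM, −0.43 ± 0.09, SE, edgeR adjusted p = 0.0137). Of the 21 RNA processing genes 2 were lower, the nuclease REXO2 (−0.58, edgeR adjusted p = 0.00434, named after its value was seen) and TRMT10C, a subunit of mitochondrial RNase P (88.5, 82.5 and 89.7 CPM against 142, 120.1 and 127 CPM, −0.58 ± 0.13, edgeR adjusted p = 0.0192). The background of genes called lower was 1.55%. The calls of TFAM and TRMT10C were lost when single libraries were left out, TFAM without untreated WT replicate 1 or 3 or any KO library (edgeR adjusted p = 0.0636 to 0.102) and TRMT10C without the same libraries (edgeR adjusted p = 0.0672 to 0.0989). TOP1MT (−0.22 ± 0.11, edgeR adjusted p = 0.315), LRPPRC (−0.15 ± 0.14, edgeR adjusted p = 0.654) and POLRMT (0.18 ± 0.21, edgeR adjusted p = 0.736) were not called. Of the replication genes and regulators edgeR called 0 in KO.

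The partner subunits that the nucleus supplies to complexes I, III, IV and ATP synthase were tested as 75 genes. In DTC 26 of them fell and 7 rose (median −0.06), beside 33.3% of all genes called lower and 34.0% higher. Those that fell included CYC1, the cytochrome c1 of complex III (324, 368 and 346 CPM to 93.9, 122 and 151 CPM, −1.503 ± 0.15, SE, edgeR adjusted p = 7.66e-07), and the subunits ATP5F1D (−1.32 ± 0.33, edgeR adjusted p = 0.00341), NDUFS6 (−1.16 ± 0.16, edgeR adjusted p = 1.32e-05) and COX8A (−0.61 ± 0.18, edgeR adjusted p = 0.00787), whose call was lost with library totals alone (−0.25, edgeR adjusted p = 0.225) or upper-quartile scaling (−0.31, edgeR adjusted p = 0.15). Those that rose included NDUFA1 (65.1, 153 and 111 CPM, 0.95 ± 0.21, edgeR adjusted p = 0.00135), COX6C (0.71 ± 0.20, edgeR adjusted p = 0.00757, with overlap) and DMAC2L (0.38 ± 0.11, edgeR adjusted p = 0.00892), and in NDUFA1 and COX6C DTC replicate 1 was the lowest of the 3. DMAC2L is counted as a subunit only by its place in the ATP synthase list used here, and no other gene of that list was called higher in DTC.

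In DTEC against untreated WT 34 of the 75 fell and 1 rose, ATP5MC2, a membrane-ring subunit of ATP synthase (0.69 ± 0.14, edgeR adjusted p = 0.000798), with a median of −0.44 beside 26.3% of all genes called lower. The lowest called members of each complex were ATP5F1D (−1.23 ± 0.33, edgeR adjusted p = 0.00742), NDUFS6 (−1.12 ± 0.16, edgeR adjusted p = 3.92e-05), CYC1 (−1.07 ± 0.15, edgeR adjusted p = 4.27e-05) and COX5A (−0.53 ± 0.13, edgeR adjusted p = 0.00346). NDUFA4 of complex IV had a lower value than COX5A but was not called (−0.70 ± 0.28, edgeR adjusted p = 0.0535). DTEC against DTC gave 24 lower, beside 26.6% of all genes, such as ATP5MK (−1.41 ± 0.27, edgeR adjusted p = 0.000652), NDUFA4 (−1.27 ± 0.28, edgeR adjusted p = 0.00230) and NDUFA1 (−1.14 ± 0.21, edgeR adjusted p = 0.000551). In the same comparison 10 were higher, beside 28.8% of all genes, such as ATP5MC2 (1.38 ± 0.14, edgeR adjusted p = 1.77e-06), NDUFS1 (0.52 ± 0.09, edgeR adjusted p = 0.000190) and UQCRC1 (0.47 ± 0.12, edgeR adjusted p = 0.00352, or 0.28 and 0.0528 with library totals alone). UQCR11 of complex III was lower (−0.87 ± 0.31, edgeR adjusted p = 0.0295, with overlap), a call lost without DTC replicate 2 (−0.51, edgeR adjusted p = 0.151), DTC replicate 3 (−0.84, edgeR adjusted p = 0.0736), DTEC replicate 1 (−0.76, edgeR adjusted p = 0.101) or DTEC replicate 2 (−0.85, edgeR adjusted p = 0.0745). In KO 1 of the 75 was lower, beside 1.55% of all genes, namely ATP5F1A of ATP synthase (−0.45 ± 0.10, edgeR adjusted p = 0.0159), and that call was lost on leaving out any 1 of the 6 libraries (edgeR adjusted p = 0.0647 to 0.128).

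Of 9788 genes with a mean of at least 10 CPM, the rows whose log2 CPM tracked the summed 13 protein genes most closely over the 12 libraries included the nuclear copies MTATP6P1 (Pearson r = 0.978) and MTND2P28 (r = 0.961), which share reads with MT-ATP6 and MT-ND2. Outside such copies the 3 most alike were UBE2D4 (r = 0.971; mean CPM 33.7, 45.8, 21.2 and 36.8 for untreated WT, DTC, DTEC and KO), the read-through row SLX1B-SULT1A4 (r = 0.958; 13.9, 20.9, 8.73 and 13.8 CPM) and C5orf34 (r = 0.956; 18.3, 21.1, 14.3 and 18.9 CPM). The r values describe 12 libraries that fall into 4 groups, and they are the highest of 9788.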

How the data were processed

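RNA was measured in 12 libraries (4 groups of 3 cultures). Per the labels' protocols, polyadenylated RNA was made into libraries with a strand-marking kit and sequenced as paired reads in 1 batch. What the authors deposited is 1 table of unscaled expected counts by gene. Per the submitters' processing notes the tools were RSEM 1.3.1, Bowtie2 2.5.2 and DESeq2 1.40.2 with GRCh38, and the annotation release, strand setting and filters are not given in the sources used here. Each expected count was rounded before it entered the fits, run in R 4.3.3 with edgeR 4.0.16 (filterByExpr by group, totals recomputed after the filter, TMM, robust quasi-likelihood fit of all 12 libraries, Benjamini-Hochberg over 17115 genes, called at an adjusted p under 0.05) and DESeq2 1.42.0 as an alternative. Symbols were found for 62700 of 62754 identifiers. The script was tested on simulated data. Nothing says that cultures differ beyond their separate growth, so p-values measure only the spread between these cultures. Shares and ratios were compared by two-sided exact permutation tests (SciPy 1.17.1), and sequence identity was computed with Biopython 1.88. The members and gene lists were chosen with earlier results of these data known. Named genes were all kept MT- rows, TDP1, TOP1MT, TFAM, POLRMT and LRPPRC, the most risen and most fallen called member of each list in each comparison, the top nuclear copy of each mitochondrial gene, and the 3 rows most alike. The fit scaled to the 13 protein genes and the rRNA ratio were added after the data had been seen. Alternatives covered scaling, filter, tool, replicate block, nuclear copies and leaving out each library.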

Additional observations from a re-analysis of the deposited data

Results flagged for a closer look

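The change from untreated WT differed between 28 and 7 days for 14 of the 15 tested mitochondrial genes, beside 55.4% of all genes. The edgeR test of this difference equals the direct comparison of DTEC with DTC, because both changes use the same untreated WT libraries. Time in drug and expansion of the cells cannot be told apart. On the log2 scale the change at 28 days minus that at 7 days was −1.61 for MT-RNR2 and −1.15 for MT-RNR1. For the complex I genes it was −0.96 for MT-ND1, −0.83 for MT-ND2, −0.40 for MT-ND3, −1.15 for MT-ND4, −1.12 for MT-ND4L and −1.65 for MT-ND5. For MT-CYB it was −1.05, for MT-CO1 −1.02, for MT-CO2 −1.03, for MT-CO3 −0.72, for MT-ATP6 −0.94 and for MT-ATP8 −1.03.

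The same test passed for 22 of the 30 nuclear genes chosen by the naming rule, beside 55.4% of all genes. That rule takes called members of this same comparison, so the count is not a result about these genes. The difference was positive for TOP1MT (1.61), ATP5MC2 (1.38), NRF1 (1.18), LRPPRC (1.13), TWNK (1.10), TFAM (0.97), TDP1 (0.93), NDUFS1 (0.52), TBRG4 (0.49), UQCRC1 (0.47), ATP5F1A (0.45), CYC1 (0.44) and PPARGC1B (0.43), each of which was called lower than in untreated WT at 7 days. It was negative for ATP5MK (−1.41), NDUFA4 (−1.27), EXOG (−1.22), NDUFA1 (−1.14), COX6C (−0.99), UQCR11 (−0.87), FASTK (−0.57), TEFM (−0.47) and DMAC2L (−0.33).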

How the results depend on the processing

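The number of protein genes called higher in DTC, 6 in the analysis as reported, was 11 with DESeq2 size factors or DESeq2, 13 with library totals alone, 12 with upper-quartile scaling, 10 with scaling without the mitochondrial rows, 10 with unfiltered library totals (chosen after seeing the data), and 5 to 11 on leaving out 1 library. Over all genes, 52.9% of 11517 calls were higher with DESeq2 size factors and 53.5% of 11842 with DESeq2. Scaling without the mitochondrial rows gave 52.9% of 11541, and unfiltered totals gave 52.8% of 11541. For fits leaving out 1 library this share is not given here. MT-ND3 in DTC changed sign, at 0.0293 with DESeq2 size factors, 0.34 with library totals, 0.28 with the upper quartile, 0.0320 without the mitochondrial rows, 0.0286 with unfiltered totals, 0.0183 with DESeq2 and −0.0775 to 0.12 on leaving out 1 library. In DTEC, TOP1MT was at 0.0298 with library totals alone, TDP1 ranged from −0.00997 to 0.0853 and MT-ND5 relative to the 13 genes from −0.107 to 0.0732 on leaving out 1 library. MT-RNR1 on that scale in DTEC against DTC ranged from −0.257 to 0.0218. In KO, 738 genes were called, 1147 without the low-count filter, 2656 from the compared libraries alone, and 321 to 426 on leaving out any 1 of the 6 libraries. MT-ND2 in KO was 0.0025 with library totals alone. On leaving out 1 library the KO values ranged from −0.0169 to 0.0747 for MT-ND1, −0.0813 to 0.0106 for MT-ND2, −0.13 to 0.20 for MT-ATP8, −0.00711 to 0.0788 for MT-ATP6, −0.10 to 0.16 for MT-ND4L, −0.101 to 0.0260 for MT-ND4, −0.0886 to 0.17 for MT-ND5, −0.0928 to 1.44 for MT-ND6, −0.0112 to 0.12 for MT-CYB and −0.0687 to 0.11 for MT-ND5 relative to the 13 genes. The cause of these shifts was not tested.

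Same-numbered libraries were weakly correlated (r from −0.030 to 0.179, not above 0.1 in every pair), and the main fits did not pair cultures by number. Weak correlations cannot exclude that same-numbered cultures share something. With a replicate block 7, 12, 12 and 0 protein genes were called in the 4 comparisons, 887 genes were called in KO, and MT-ND5 relative to the 13 genes was 0.0025 in DTEC. MT-ND6 rested on 25 to 231 counts per library, which limits its precision.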
